A study of Drosophila melanogaster with 9 samples.

Results

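The genes described here are the translation factors and aminoacyl-tRNA synthetases of the larval fat body, the organ of the fly that stores fat and glycogen and makes much of the protein of the blood. They were all genes of the deposited RNA-seq table whose symbol begins with Aats-, eIF, Ef1 or Ef2, which gave 50 of 10372 genes: 21 synthetases, 24 initiation factors and 5 elongation factors. The rule uses symbols and no expression value. All 50 had reads in every library, and the filter on low values removed none of them.

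Fat bodies came from feeding female Drosophila melanogaster larvae in the third instar, and total RNA was sequenced after depletion of ribosomal RNA. All larvae had a mother with hs-GAL4, a driver that makes the yeast activator GAL4 after heat, in any tissue that responds to heat. In the group control_HS the fathers were of stock 6598 (y1w1118), with no UAS transgene, and the larvae were heated at 37 °C for 30 min. In the group InRCA_HS the fathers were of stock 8263, which brings UAS-InR.A1325D, a constitutively active insulin receptor under GAL4 control, and the larvae were heated in the same way. The group InRCA_noHS came from the same cross as InRCA_HS but was kept at 25 °C. Recovery lasted 6 h before the tissue was sheared loose and collected by centrifugation, and each of the 3 groups had 3 libraries. A control cross without heat was not analysed here, so InRCA_HS and control_HS differ in the receptor together with the male stock, InRCA_HS and InRCA_noHS in heat together with the receptor that heat induces, and InRCA_noHS and control_HS in heat together with the stock and its transgene. Each pair of comparisons shares the libraries of 1 group, and values are therefore set side by side with no count of their overlap. Whether the libraries of 1 group were grown as separate cultures is not said in the labels, and the p-values cover no more than the spread among these libraries, possibly of technical origin.

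Aminoacyl-tRNA synthetases join each amino acid to its transfer RNA. Initiation factors bring the initiator tRNA, the small ribosomal subunit and the capped end of the mRNA together, and elongation factors then deliver aminoacyl-tRNA and move the ribosome along. Insulin and TOR signalling are known to raise translation in the fat body, in part through the cap-binding factor eIF4E and its binding protein Thor.

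The labels do not name the unit of the table. Its values are called adjusted counts here, because undoing an adjustment with 1 factor per library turned nearly all of the low values into whole reads; they summed to 10625545 to 15514912 in a library. The whole reads recovered from them ranged from 8761539 in a library (InRCA_noHS replicate 1) up to 17599571 (InRCA_HS replicate 3). The lowest recovered count of any of the 50 genes in a library was 22, for Aats-met. InR, which counts the resident gene and the transgene together, checked the labels with 743, 785 and 826 adjusted counts in control_HS, 1821, 3662 and 2128 in InRCA_noHS libraries and 66688, 47774 and 60402 in InRCA_HS. InR was also higher in InRCA_noHS than in control_HS in every library, by 3.09-fold (limma, log2 difference 1.63, SE 0.25, adjusted p = 0.00467), so the unheated group had raised InR RNA too. The 9 fat body markers in the table (of 11 listed) held 23.2% to 31% of the adjusted counts of a library. The 8 salivary gland markers (of 10) held 0.0936% to 0.347% in control_HS, 0.286% to 0.758% in InRCA_noHS and 0.483% to 1.55% in InRCA_HS, so that InRCA_HS lay above control_HS in every library. The 13 muscle markers held 0.344% to 0.524%, 0.216% to 0.292% and 0.302% to 0.338% in the same order, and no pair of groups overlapped. Markers of hemocytes (7 of 10) held 0.0411% to 0.0759%, those of the gut (9 of 10) 0.0966% to 0.336% and those of the gonad (2 of 5) at most 0.00045%, over all libraries. The 5 markers of discs and neurons (of 6) held 0.0533% to 0.0582% in control_HS, 0.0559% to 0.0571% in InRCA_noHS and 0.0361% to 0.0436% in InRCA_HS, which lay below both other groups in every library. No value of the table was 0, and the part of these other cells in the differences given here was not tested. In bulk tissue, fewer cells of a type and less RNA per cell cannot be told apart.

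Levels between genes are compared per kilobase of exon, which could be computed for 47 of the 50 genes; Ef1alpha48D, Aats-phe and eIF-5A were not matched to the reference annotation. The elongation factors were the most abundant class, with a median of 9990 adjusted counts per kb over 4 genes, against 454 for 23 initiation factors, 264 for 20 synthetases and 74.2 for all 9928 genes with a length. Ef2b, the factor that moves the ribosome by a codon (eEF2 in current names), had the highest level of the genes with an exon length, 24056 per kb in control_HS, 20821 in InRCA_noHS and 17767 in InRCA_HS. Ef1alpha48D, which has no length here and is not placed in this order, had a mean of 189317 adjusted counts in control_HS, not divided by length, where Ef2b had 73514. Among initiation factors the helicase eIF-4a stood first, at 9167, 9137 and 7639 per kb. The lowest initiation factor was eIF4G2, a scaffold known for its role in the fly testis, at 72, 86.3 and 66.7 per kb.

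Among the synthetases, those of the mitochondrion had the lowest levels. Aats-asp, for aspartate, had the highest level, 1791, 1032 and 1265 per kb in control_HS, InRCA_noHS and InRCA_HS. The reference names 15 of the 21 as cytosolic and 5 as mitochondrial (Aats-ala-m, Aats-ser, Aats-leu, Aats-pro and Aats-met), and Aats-phe had no current name. Averaged over the 9 libraries, the 5 mitochondrial enzymes lay between 9.95 and 74.7 per kb and the 15 cytosolic ones between 153 and 1363, so the ranges did not overlap.

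**Figure D1:**
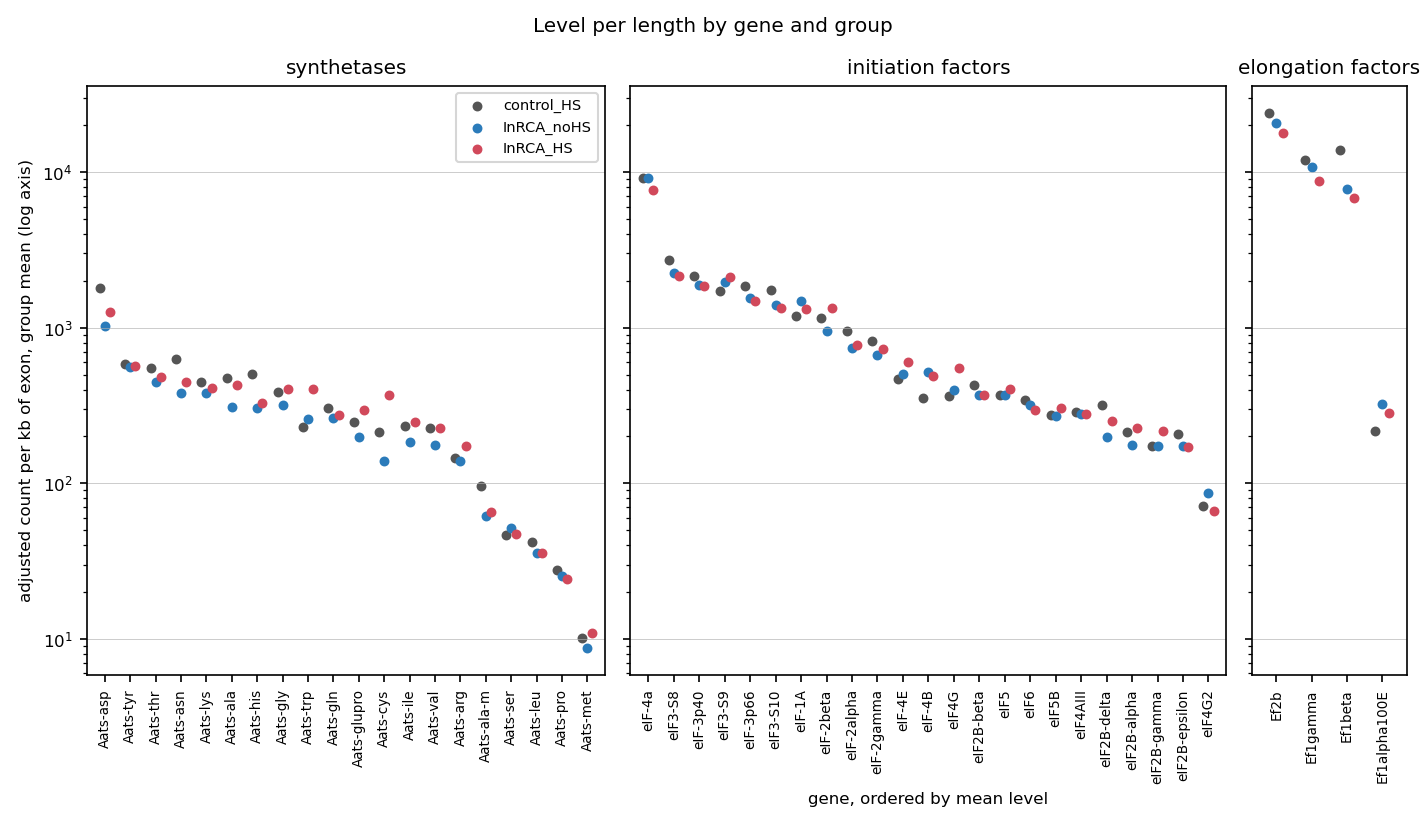
Group means (n = 3 libraries) of adjusted counts per kb of exon on a log axis, for the 47 genes with an exon length, ordered within each class by their mean over all libraries. The 3 points of a gene are its groups, and the differences between genes of a class are far wider than those between groups: averaged over the 9 libraries the synthetases run from 9.95 to 1363 per kb, while the median gene varied 1.64-fold over its libraries.

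Within a gene the values varied little. The highest library was 1.29 to 3.16 times the lowest, with a median of 1.64 for the 50 genes against 2.18 for all genes. The widest range among the 50 was that of Aats-cys. The standard error of a log2 difference was 0.13 to 0.33 with a median of 0.17, against 0.25 for all genes, and the median 95% interval reached 0.38 to each side. Neither comparison with all genes was matched for level. The median of the mean adjusted counts was 1050 for the 50 genes and 157 for all genes, and the part of level was not tested.

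Summed over a class, elongation factors held 2.2%, 2.22% and 2.09% of the adjusted counts in the control_HS libraries, 1.73%, 1.87% and 2.18% in InRCA_noHS libraries and 1.75%, 1.75% and 1.91% in InRCA_HS. Each InRCA_HS library was thus below each control_HS library, and InRCA_noHS overlapped both. The synthetases held 0.148%, 0.161% and 0.115% in control_HS, 0.103%, 0.118% and 0.104% in InRCA_noHS libraries and 0.152%, 0.158% and 0.145% in InRCA_HS, so that InRCA_HS lay above InRCA_noHS in all libraries. Initiation factors held 0.532% to 0.648%, and every pair of groups overlapped. Such shares depend on the most abundant members and on the total of the library.

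**Figure D2:**
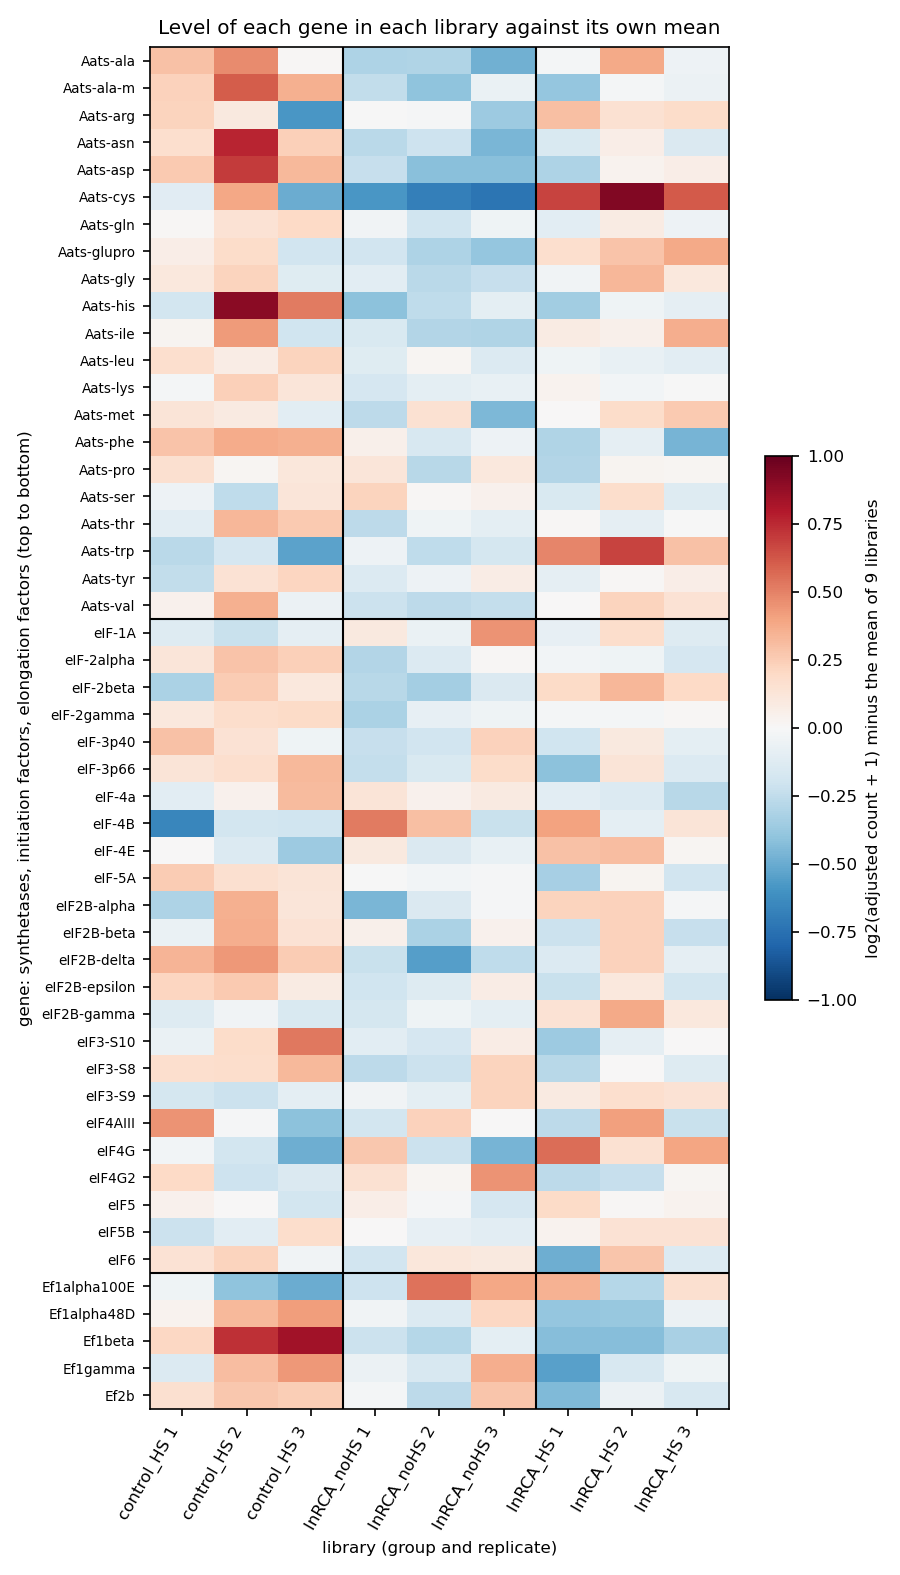
Colour gives log2(adjusted count + 1) of each gene in each library minus the mean of that gene over the 9 libraries, red above and blue below. Rows are the 50 genes, with lines between synthetases, initiation factors and elongation factors, and columns are libraries, with lines between groups. Most synthetase rows are blue in the 3 InRCA_noHS columns, where the class median lay at −0.25 to −0.16, and Aats-cys and Aats-trp are darkest red in InRCA_HS.

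The test was limma on log2(adjusted count + 1), fitted to all 9 libraries and adjusted over all 10372 genes by the Benjamini-Hochberg method with a threshold of 0.05. Few of the 50 genes passed. Aats-trp rose and Ef1beta fell in InRCA_HS against control_HS, which is 2 of 50 where 2.43% of all genes were called (1.11% higher and 1.32% lower). In InRCA_HS against InRCA_noHS Aats-cys rose and none fell, 1 of 50 where 2.55% were called (1.75% higher and 0.800% lower). In InRCA_noHS against control_HS, Aats-asn, Aats-asp, eIF2B-delta and Ef1beta fell and none rose, 4 of 50 where 7.03% were called (3.25% higher and 3.78% lower). These shares are near the background. At an unadjusted p under 0.05 the counts were 10, 8 and 14 of 50, where all genes gave 18.3%, 14.8% and 23.7%.

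The direction of the differences that did not pass is given by counts and medians. The median over all genes was 0.00 in InRCA_HS against control_HS, −0.14 in InRCA_HS against InRCA_noHS and 0.12 in InRCA_noHS against control_HS, and with TMM scaling (trimmed mean of M-values) it was 0.00, −0.02 and 0.00. Class medians are therefore also given relative to that of all genes where they are first described. In InRCA_HS against InRCA_noHS, 16 of 50 genes had all 3 InRCA_HS libraries above all 3 others, where 7.52% of all genes did, and 2 had them all below, where 15.8% did. In InRCA_noHS against control_HS, 2 were above (17.2% of all genes) and 16 below (10.4%). The counts in InRCA_HS against control_HS were 7 above (9.53%) and 13 below (11.0%). Counts of groups without overlap, here and below, used the adjusted counts with no further scaling, so the shift of all genes remains in them. They were not matched for level either.

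**Figure D3:**
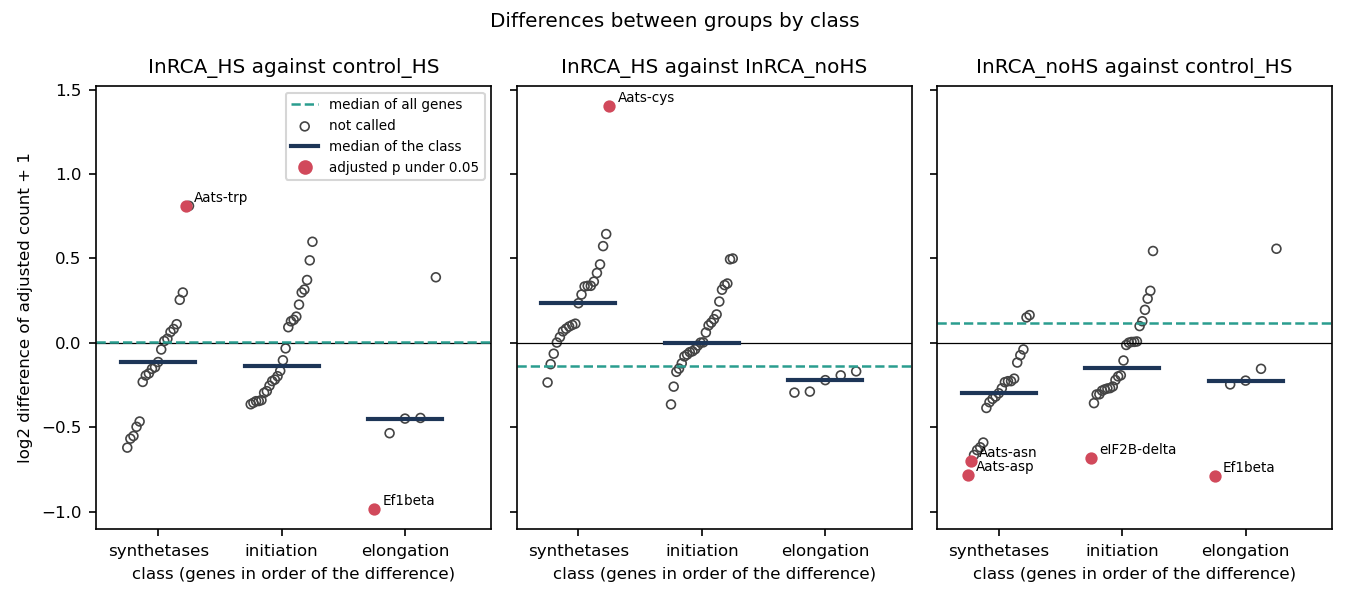
Each point is 1 gene, placed at its log2 difference between groups of 3 libraries, with filled points past an adjusted p of 0.05 (limma). Dark bars mark the class median and the dashed line the median of all genes. In InRCA_HS against InRCA_noHS the synthetase median (0.23) stands above the dashed line (−0.14), and in InRCA_noHS against control_HS it stands below (−0.30 against 0.12).

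Most synthetases had their lowest levels in InRCA_noHS, the group that was not heated, although few differences passed singly. Against InRCA_noHS, 18 of 21 lay higher in InRCA_HS, where 33.4% of all genes did, with a median log2 difference of 0.23, or 0.37 above that of all genes. The 15 cytosolic enzymes were all higher (median 0.33, or 0.47 above all genes), also with quantile normalization, TMM scaling and edgeR on recovered reads, and at least 14 were higher whichever library was left out. In 10 of the 15 the groups did not overlap, where 7.52% of all genes were higher without overlap. The 5 mitochondrial enzymes had a median of 0.00 (0.14 above all genes) with 3 above 0, and 4 above 0 with each of the 3 other scalings. Against control_HS, 19 of 21 lay lower in InRCA_noHS, where 39.1% of all genes did (median −0.30, or 0.42 below that of all genes), and this count was the same under the other scalings. In that comparison the cytosolic enzymes had a median of −0.32 (0.44 below all genes), with 14 of 15 below 0. The mitochondrial ones had −0.23 (0.35 below all genes), with 4 of 5 below 0. In InRCA_HS against control_HS, 9 of the 21 lay higher and 12 lower, with a median of −0.11 (−0.07 with quantile normalization). The share of muscle markers was also lowest in InRCA_noHS (0.216% to 0.292%), and its part in these differences was not tested.

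Aats-cys (FBgn0027091, arm 2R), the enzyme for cysteine, had 496, 706 and 382 adjusted counts in control_HS, 359.9, 335 and 324 in InRCA_noHS libraries and 861, 1021 and 824 in InRCA_HS. Each InRCA_HS library was above every other, and control_HS, which varied most, was above InRCA_noHS. The means were 528 ± 164, 339.6 ± 18.5 and 902 ± 105 (SD, n = 3, as for every mean here). The gene rose 2.64-fold in InRCA_HS against InRCA_noHS (log2 difference 1.40, SE 0.21, adjusted p = 0.00646). Over the alternatives of this result, 19 of 19 kept the call, with an adjusted p of 0.00142 to 0.0358. Against control_HS the difference was 0.81 (adjusted p = 0.0696), and among the alternatives it passed only without control_HS replicate 2 (1.04, adjusted p = 0.0398). Without control_HS replicate 3 it was 0.60 (adjusted p = 0.216). InRCA_noHS against control_HS gave −0.59 (adjusted p = 0.117). The share of salivary gland markers in InRCA_HS (0.483% to 1.55%) lay above control_HS and overlapped InRCA_noHS, and that of disc and neuron markers (0.0361% to 0.0436%) lay below both. The part of either in the values of Aats-cys and Aats-trp was not tested.

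Aats-trp (FBgn0010803, arm 3R), which charges the tRNA of tryptophan, was also high in InRCA_HS, at 680.1, 771 and 591 adjusted counts against 401, 431 and 333 in control_HS and 468, 405 and 428 in InRCA_noHS libraries. No library of InRCA_HS overlapped the others, and the other groups overlapped each other. It rose 1.75-fold against control_HS (log2 difference 0.81, SE 0.16, adjusted p = 0.0322). That call ended without control_HS replicate 2 or 3, any InRCA_noHS library, or InRCA_HS replicate 1 or 2 (adjusted p 0.0521 to 0.128). Against InRCA_noHS the difference of 0.64 had an adjusted p of 0.0704. The adjusted p was 0.0315 with TMM scaling and 0.232 without InRCA_noHS replicate 2.

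Aats-glupro (FBgn0005674, arm 3R), a fused enzyme for glutamate and proline, had 1389, 1506 and 1157 adjusted counts in control_HS, 1158, 1066 and 1011 in InRCA_noHS libraries and 1486, 1609 and 1719.9 in InRCA_HS. Its InRCA_HS libraries lay above those of InRCA_noHS but overlapped control_HS. The difference from InRCA_noHS was 0.57, SE 0.15 (adjusted p = 0.0801), and it passed with TMM scaling (0.69, adjusted p = 0.032), quantile normalization (adjusted p = 0.0404) and edgeR (adjusted p = 0.0409). Whichever library was left out, the Aats-glupro difference did not pass, and without InRCA_noHS replicate 3 it was 0.53 (adjusted p = 0.28). Its exons overlap an antisense gene over 905 bases in the reference annotation, and use of strand in counting is not given in the sources used here.

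**Figure D4:**
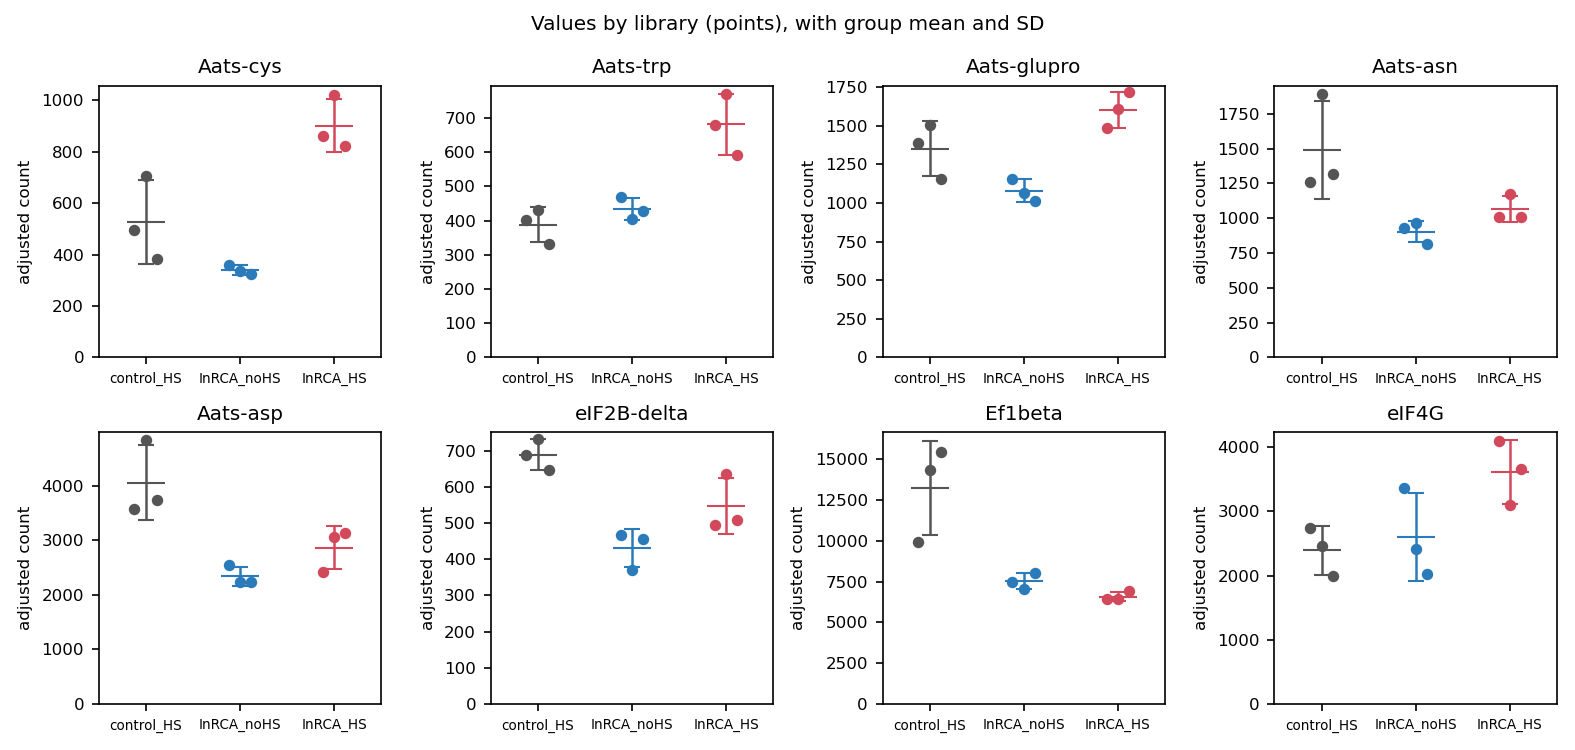
Adjusted counts of 8 genes, chosen after their values were seen, in each library (points), with the group mean and SD (n = 3) and axes that start at 0. Aats-cys and Aats-trp are highest in InRCA_HS, Aats-asn, Aats-asp, eIF2B-delta and Ef1beta are highest in control_HS, and for eIF4G the InRCA_HS libraries are above control_HS and overlap InRCA_noHS.

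The synthetases that fell in InRCA_noHS against control_HS were those for asparagine and aspartate. Aats-asp (FBgn0002069, arm 2R) had 3576, 4847 and 3749 adjusted counts in control_HS, 2550.4, 2232 and 2236 in InRCA_noHS libraries and 2414, 3056 and 3128 in InRCA_HS. All control_HS libraries were above all others, and the libraries with the transgene overlapped. It was 1.72-fold lower in InRCA_noHS than in control_HS (log2 difference −0.78, SE 0.17, adjusted p = 0.0236), a call that ended without control_HS replicate 2, InRCA_noHS replicate 2 or InRCA_noHS replicate 3 (adjusted p 0.0863 to 0.0959). In InRCA_HS against control_HS it was −0.50 (adjusted p = 0.152). An antisense gene covers 1448 bases of its exons.

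Aats-asn (FBgn0086443, arm 2L) was likewise highest in control_HS, with 1261, 1896 and 1320 adjusted counts in control_HS, 928, 967 and 817 in InRCA_noHS libraries and 1008, 1173 and 1011 in InRCA_HS. No groups overlapped, InRCA_HS being in the middle, and control_HS replicate 2 stood above the rest of its group. The gene was 1.63-fold lower in InRCA_noHS than in control_HS (log2 difference −0.70, SE 0.18, adjusted p = 0.0399). The call ended in 7 of 9 fits without 1 library, those without control_HS replicate 2 or 3, any InRCA_noHS library, or InRCA_HS replicate 1 or 3 (adjusted p 0.0513 to 0.137).

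Other synthetases came near the threshold. Aats-ala, for alanine, had 1573 ± 248, 1017 ± 69.1 and 1414 ± 242 adjusted counts in control_HS, InRCA_noHS and InRCA_HS. Its difference of −0.62 in InRCA_noHS against control_HS (adjusted p = 0.0549) passed with TMM scaling (−0.74, adjusted p = 0.0259), quantile normalization, edgeR and without InRCA_HS replicate 2. Without control_HS replicate 2 the Aats-ala difference was −0.51 (adjusted p = 0.205). Its mitochondrial counterpart Aats-ala-m, chosen after its values were seen, had −0.64 in InRCA_noHS against control_HS (adjusted p = 0.058). That difference passed with TMM scaling, quantile normalization and edgeR. Aats-phe, for phenylalanine, was highest in control_HS (333, 353 and 349.8) and lowest in InRCA_HS (221, 257 and 198), with 284, 245 and 264 in InRCA_noHS libraries. Control_HS did not overlap either group. The Aats-phe difference of −0.62 in InRCA_HS against control_HS (adjusted p = 0.0641) passed only without control_HS replicate 1 (adjusted p = 0.0416). Its adjusted p rose to 0.2 without InRCA_HS replicate 1. Aats-thr, for threonine, had 1598 ± 251, 1290.3 ± 99.6 and 1386 ± 53.7, with log2 differences of −0.19, 0.11 and −0.30 that did not pass. The lowest per kb were the mitochondrial Aats-pro (41.8 ± 2.09, 38.8 ± 5.97 and 36.9 ± 4.61) and Aats-met (43.7 ± 3.81, 37.7 ± 8.53 and 47.3 ± 4.41, both in adjusted counts), whose groups overlapped in every comparison. For Aats-tyr, for tyrosine, chosen after its values were seen, the 95% interval of the difference from InRCA_noHS was −0.31 to 0.38.

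The initiation factors had class medians within 0.14 of that of all genes in both comparisons of InRCA_HS. The median in InRCA_HS against control_HS was −0.13, with 10 above and 14 below 0 (12 and 12 with quantile normalization). In InRCA_HS against InRCA_noHS it was 0.00, with 13 above and 11 below, and 19 above with TMM scaling or quantile normalization and 20 with edgeR. In InRCA_noHS against control_HS it was −0.15, or 0.27 below all genes, with 14 of 24 lower (19 with TMM scaling or edgeR and 17 with quantile normalization).

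The subunits of eIF2, the GTPase that carries the initiator tRNA, were lowest in InRCA_noHS. All 3 lay above 0 in InRCA_HS against InRCA_noHS and below 0 in InRCA_noHS against control_HS, under every scaling. The median in the former was 0.14, or 0.28 above all genes (0.26 with TMM scaling and 0.25 with edgeR), and in the latter −0.31, or 0.43 below all genes. The beta subunit, eIF-2beta, had 1018, 1516 and 1368 adjusted counts in control_HS, 1046, 1004 and 1150.5 in InRCA_noHS libraries and 1451, 1597 and 1460.2 in InRCA_HS. Its InRCA_HS libraries were above those of InRCA_noHS and overlapped control_HS, and the difference of 0.49, SE 0.17 did not pass (adjusted p = 0.183). The alpha subunit, eIF-2alpha, whose phosphorylation is known to block initiation, had a log2 difference of −0.36 in InRCA_noHS against control_HS that did not pass (adjusted p = 0.147). For eIF-2gamma, which binds GTP, it was −0.31 (adjusted p = 0.194), and 352 bases of that gene's exons are shared with Su(var)3-9.

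The exchange factor eIF2B, which reloads eIF2 with GTP, has 5 subunits and all were measured. They had a median of 0.31 in InRCA_HS against InRCA_noHS (0.45 above all genes), with 4 of 5 above 0 (5 with TMM scaling, quantile normalization or edgeR), and −0.26 in InRCA_noHS against control_HS (0.38 below all genes), with 4 of 5 below 0 (5 under the other scalings). The catalytic subunit eIF2B-epsilon had differences of −0.02 and −0.27 in these comparisons, eIF2B-beta 0.00 and −0.22, and eIF2B-alpha 0.35 and −0.26, none of which passed.

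eIF2B-delta (FBgn0034858, arm 2R), a regulatory subunit, had 688, 733 and 648 adjusted counts in control_HS, 466, 371 and 456 in InRCA_noHS libraries and 495, 637 and 509.8 in InRCA_HS. The 3 groups were ordered with no overlap, InRCA_HS in the middle. It was 1.6-fold lower in InRCA_noHS than in control_HS (log2 difference −0.68, SE 0.16, adjusted p = 0.0296), and the call ended without control_HS replicate 2 or 3 or any InRCA_noHS library (adjusted p 0.0551 to 0.116). The gamma subunit, eIF2B-gamma, had another order, with 266, 283 and 261 adjusted counts in control_HS, 257, 282 and 271 in InRCA_noHS libraries and 321, 379 and 312 in InRCA_HS. All InRCA_HS libraries of eIF2B-gamma were above all others, but the log2 difference of 0.32 from control_HS did not pass (adjusted p = 0.285). Across the 50 genes, InRCA_HS lay above both other groups without overlap for Aats-cys, Aats-trp and eIF2B-gamma, 3 genes where 1.90% of all genes did, and below both for Ef1beta, where 4.09% did.

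The 5 eIF3 subunits with such symbols belong to the large scaffold on the small ribosomal subunit. In InRCA_HS against control_HS 4 of 5 lay below 0, and likewise in InRCA_noHS against control_HS, counts that held under each scaling. The sizes did not: the medians were −0.35 and −0.28 (0.35 and 0.40 below all genes), but −0.08 and −0.15 with quantile normalization. The exception was eIF3-S9 (eIF3b in current names, chosen after its values were seen), with 4539, 4425 and 4798 adjusted counts in control_HS, 5021, 4801 and 6002 in InRCA_noHS libraries and 5468, 5785 and 5668 in InRCA_HS. Control_HS was below both other groups for this gene. Its log2 difference in InRCA_HS against control_HS was 0.30, SE 0.15 (adjusted p = 0.326), while eIF3-S8 (eIF3c) had −0.36, eIF3-S10 (eIF3a) −0.36, eIF-3p66 (eIF3d1) −0.35 and eIF-3p40 (eIF3h) −0.20, none passing. Divided by the sum of the other 4 within a library, eIF3-S9 was 0.202 ± 0.0103 in control_HS, 0.281 ± 0.0124 in InRCA_noHS and 0.314 ± 0.0273 in InRCA_HS. These ratios of adjusted counts, chosen after the values were seen and given with no test, did not overlap between control_HS and either other group.

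The eIF4 group holds the cap-binding machinery and relatives, 6 genes with no calls. In InRCA_noHS against control_HS all 6 lay above 0 (median 0.11, with all genes at 0.12), but 3 of 6 did with TMM scaling or edgeR and 5 with quantile normalization, and in InRCA_HS against control_HS 3 of 6 did (4 with quantile normalization), with a median of 0.17 (0.28 with quantile normalization). eIF4G, the scaffold that joins the cap-binding factor to the helicase, had 2734, 2455 and 1987 adjusted counts in control_HS, 3366, 2407 and 2024 in InRCA_noHS libraries and 4094, 3093 and 3660.3 in InRCA_HS. InRCA_HS was above control_HS in every library and overlapped InRCA_noHS, whose replicate 1 was high. The difference from control_HS was 0.60, SE 0.21 (adjusted p = 0.159). The cap-binding factor eIF-4E, a known target of insulin signalling through Thor, had 1164, 1053 and 900.3 adjusted counts in control_HS, 1243, 1052 and 1101 in InRCA_noHS libraries and 1425, 1433 and 1173 in InRCA_HS. InRCA_HS lay above control_HS, with a difference of 0.37 that did not pass (adjusted p = 0.233).

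The helicase eIF-4a had 19786, 21949 and 26468 adjusted counts in control_HS, 23313, 22011 and 22656 in InRCA_noHS libraries and 19828, 19384 and 17625 in InRCA_HS. InRCA_HS overlapped control_HS and was below InRCA_noHS in every library, and neither the difference of −0.26 from InRCA_noHS nor that of −0.25 from control_HS passed (adjusted p = 0.589 and 0.547). Within a library, eIF4G over eIF-4a was 0.108 ± 0.0317 in control_HS, 0.114 ± 0.0279 in InRCA_noHS and 0.191 ± 0.0274 in InRCA_HS, whose lowest value, 0.16, was above all others. This ratio was also chosen after the values were seen and was not tested. eIF-4B, a helper of the helicase, had 538, 748 and 739.9 adjusted counts in control_HS, 1214, 1046 and 728 in InRCA_noHS libraries and 1122, 791 and 928 in InRCA_HS, with InRCA_HS above control_HS and a difference of 0.49 (adjusted p = 0.275). eIF4AIII, known from the exon junction complex rather than from initiation, had 424 ± 127, 416 ± 60.2 and 412 ± 113, with an interval of −0.58 to 0.52 for InRCA_HS against control_HS. eIF4G2 had 655 ± 103, 785 ± 123 and 607 ± 66.7, and shares 779 bases of exon with CG33111.

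**Figure D5:**
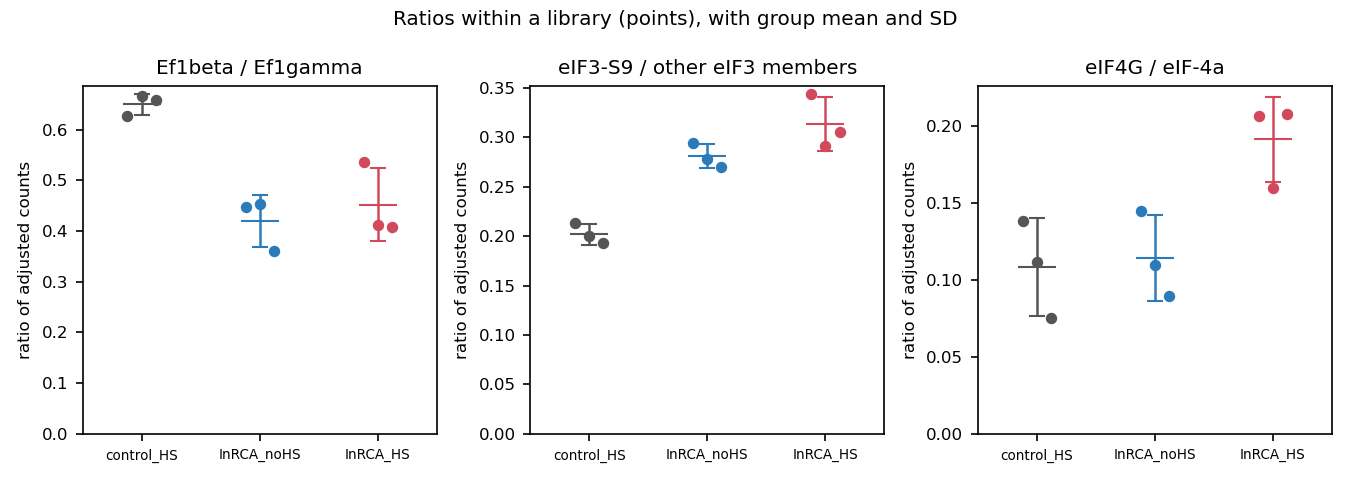
Ratios of adjusted counts within each library (points), with group mean and SD (n = 3) and axes that start at 0: Ef1beta over Ef1gamma, eIF3-S9 over the other eIF3 genes, and eIF4G over eIF-4a. Control_HS stands apart in the first (0.650 against 0.420 and 0.452) and in the middle panel (0.202 against 0.281 and 0.314), and InRCA_HS in the last (0.191 against 0.108 and 0.114). The ratios were chosen after the values were seen and were not tested.

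Factors of the later steps of initiation gave no calls. eIF5, which makes eIF2 hydrolyse its GTP, and eIF5B, which joins the ribosomal subunits, had differences of 0.13 and 0.16 in InRCA_HS against control_HS, and of 0.12 and 0.17 against InRCA_noHS. Exons of eIF5 share 2588 bases with CG46312. eIF-5A, named with the initiation factors but known to act during elongation, had 12756 ± 565, 11155 ± 75.8 and 10088 ± 1279.6 adjusted counts, with InRCA_HS below control_HS in every library (log2 difference −0.35, adjusted p = 0.312). eIF-1A, which helps the small subunit scan, had 0.14, and eIF6, which keeps the large subunit free, −0.23.

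The elongation factors apart from Ef1alpha100E lay lower in InRCA_HS than in control_HS under every scaling. The median of the 5 was −0.45, or 0.45 below all genes (−0.22 with quantile normalization). Against InRCA_noHS 5 of 5 were below 0, but the median of −0.22 was 0.08 below all genes, and it was −0.10 with TMM scaling, −0.11 with edgeR and −0.03 with quantile normalization, where 3 of 5 were below 0. InRCA_noHS against control_HS gave 4 of 5 below 0 (median −0.22, or 0.34 below all genes), and −0.38 with 3 of 5 below 0 with quantile normalization. Ef1alpha48D, which delivers aminoacyl-tRNA to the ribosome, had 160650, 197010 and 210290 adjusted counts in control_HS, 153310, 143120 and 181650 in InRCA_noHS libraries and 119890, 120720 and 150950 in InRCA_HS. InRCA_HS was below control_HS in all libraries and overlapped InRCA_noHS. The log2 difference of −0.54 did not pass (adjusted p = 0.443). Its SE of 0.33, the widest of the 50 genes, drew in part on the spread fitted for genes of such a high level. The group means of Ef1alpha48D were 189317 ± 25699, 159360 ± 19965 and 130520 ± 17698 in control_HS, InRCA_noHS and InRCA_HS.

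Ef1beta (FBgn0028737, arm 2R), a subunit of the exchange factor that recharges Ef1alpha with GTP, had 9940.5, 14331 and 15442 adjusted counts in control_HS, 7449.5, 7067 and 8056 in InRCA_noHS libraries and 6406, 6422 and 6901 in InRCA_HS. The groups did not overlap, and control_HS replicate 1 was the lowest of its group. It was 1.98-fold lower in InRCA_HS than in control_HS (log2 difference −0.98, SE 0.19, adjusted p = 0.0301) and 1.73-fold lower in InRCA_noHS (log2 difference −0.79, SE 0.19, adjusted p = 0.0351). The former call ended without control_HS replicate 2 or 3, InRCA_noHS replicate 1 or 3, or InRCA_HS replicate 1 or 2 (adjusted p 0.0541 to 0.12). The latter ended without control_HS replicate 2 or 3, any InRCA_noHS library or InRCA_HS replicate 1 (adjusted p 0.054 to 0.135). With quantile normalization both differences from control_HS were smaller, −0.66 in InRCA_HS (adjusted p = 0.0439) and −0.63 in InRCA_noHS (adjusted p = 0.0262). Between InRCA_HS and InRCA_noHS the difference was −0.19 (adjusted p = 0.69), with an interval of −0.62 to 0.23. Muscle markers were also highest in control_HS (0.344% to 0.524%), and their part in these differences was not tested.

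Its partner Ef1gamma had 15866, 21542 and 23475 adjusted counts in control_HS, 16678, 15600 and 22382 in InRCA_noHS libraries and 11962, 15585 and 16911 in InRCA_HS, which overlapped in every comparison, with a difference of −0.45 in InRCA_HS against control_HS (adjusted p = 0.356). The ratio of Ef1beta to Ef1gamma was 0.627, 0.665 and 0.658 in the control_HS libraries, 0.447, 0.453 and 0.36 in InRCA_noHS libraries and 0.536, 0.412 and 0.408 in InRCA_HS. Control_HS did not overlap the others, which overlapped each other, in this ratio chosen after the values were seen and not tested. Ef2b had 70190, 75759 and 74592 adjusted counts in control_HS, 62172, 52603 and 76108 in InRCA_noHS libraries and 46283, 60361 and 56243 in InRCA_HS. InRCA_HS was below control_HS in every library, but the difference of −0.45, SE 0.26 did not pass (adjusted p = 0.416). The ratio of Ef1alpha48D to Ef2b was 2.57 ± 0.27 in control_HS, 2.52 ± 0.17 in InRCA_noHS and 2.42 ± 0.37 in InRCA_HS, and all groups overlapped.

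Ef1alpha100E, the second gene for the same factor as Ef1alpha48D, had differences of the other sign, with 684, 532 and 500.0 adjusted counts in control_HS, 612, 1027 and 924 in InRCA_noHS libraries and 897, 578 and 787 in InRCA_HS. Its groups overlapped, and its difference from control_HS was 0.39 in InRCA_HS (adjusted p = 0.421) and 0.56 in InRCA_noHS (adjusted p = 0.178). The ratio of Ef1alpha48D to Ef1alpha100E, also chosen after the values were seen and not tested, was 342 ± 96 in control_HS, 195 ± 55.6 in InRCA_noHS and 178 ± 39.3 in InRCA_HS. How reads of similar copies were assigned is not given in the sources used here, so the level of the rare copy is uncertain.

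Of 41 other translation genes listed beside the 50, 38 were in the table, and 1 passed the test in any comparison. This was CG10306 (eIF3k in current names), which fell in InRCA_noHS against control_HS (log2 difference −0.58, SE 0.15, adjusted p = 0.0433). In that comparison 7.03% of all genes were called (3.25% higher and 3.78% lower), so 1 of 38 is not above the background. The 9 mitochondrial synthetases without an Aats- symbol had medians of 0.01, 0.03 and −0.03 for InRCA_HS against control_HS, for InRCA_HS against InRCA_noHS and for InRCA_noHS against control_HS. The other scalings left the first at −0.02 to 0.03 but gave 0.11 to 0.15 for the second and −0.19 to −0.15 for the last, where 7 of 9 were then below 0. The 4 further cytosolic ones, the alpha and beta chains for phenylalanine and the enzymes for serine and methionine, had medians of 0.04, 0.22 and −0.29, with 3 of 4 above 0 in the middle comparison (4 of 4 with the other scalings, and a median of 0.33 with TMM scaling and 0.34 with edgeR) and 3 of 4 below in the last. Thor, the inhibitor that binds eIF4E and is a target of FOXO, had 1415, 945 and 879 adjusted counts in control_HS, 2606, 1387 and 2014 in InRCA_noHS libraries and 2141, 2106 and 1324 in InRCA_HS. Control_HS overlapped both other groups. The differences of Thor from control_HS of 0.78 in InRCA_HS (adjusted p = 0.16) and 0.88 in InRCA_noHS (adjusted p = 0.0838) did not pass.

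None of the genes around eIF2 phosphorylation passed. PEK and Gcn2, the kinases of eIF2alpha, had differences of −0.14 and −0.28 in InRCA_HS against InRCA_noHS, the transcription factor crc (ATF4 in mammals) −0.22 and the phosphatase subunit Gadd34 −0.55 (adjusted p = 0.158). The median of these 4 was −0.25, where that of all genes was −0.14. With TMM scaling the medians were −0.14 and −0.02. In release and rescue, the termination factor Elf (eRF3) had 0.53 (adjusted p = 0.13) and eRF1 0.14. Of the eIF3 subunits under other names, 2 of 3 with older names (median −0.24) and 5 of 5 found by their current names (median −0.30) lay below 0 in InRCA_HS against control_HS, with medians of −0.14 and −0.21 and 4 of 5 for the latter with quantile normalization.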

How the data were processed

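RNA-seq values were analysed for 9 libraries of larval fat body, 3 in each of 3 groups, which the sample titles give. Per the submitters' processing notes, which state no roles, the build was dm3 and the tools included TopHat 1.3.2, Cufflinks 1.1.0 and Bowtie 0.12.7. How reads were counted, with which annotation and with or without strand, is not given in the sources used here. The deposited table gives each gene a signal in each library, which the labels do not name and which is treated as counts that the authors adjusted by a factor for each library. The unit was not known when the tests were planned, and the planned test for values that are not raw counts was used. Undoing a quantile adjustment of negative binomial counts, with 1 factor per library and a dispersion of 0.0718, made 99.3% of 38615 values of at most 100 whole, with a tolerance of 0.1. The median difference between rebuilt and deposited values was 0.00397%. 0 columns of other samples were left out.

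Genes were tested with limma 3.58.1 in R 4.3.3 on log2(adjusted count + 1), in a fit of all 9 libraries with 3 group means and a spread that followed the mean level, and a fold change on that scale understates the change of low genes. Adjustment of p-values was that of Benjamini and Hochberg, over 10372 genes. The filter, a mean of at least 1, removed 0 genes. The alternatives were edgeR 4.0.16 quasi-likelihood on the recovered reads (with 118 genes called higher and 162 called lower in InRCA_HS against control_HS), quantile normalization, TMM scaling, a pseudocount of 0.1 or 5, a minimum mean of 5 or none, a spread with no intensity trend, fits with only the 6 libraries of a comparison, a block for the replicate number, and leaving out each library. The recovery and both tests were also run on simulated data with the same dispersion for every gene and no shift of all genes between groups. Such data cannot show how the calls depend on scaling.

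Genes with full values were every called member, the 3 with the smallest p in each class and comparison, the extremes of level in each class, and the eIF4 and elongation factor genes, and some of these are given by mean or range only. The members and lists were chosen with earlier results of these data known, and the list of eIF3 subunits by current name was added after names were seen. Exon lengths, names and chromosome arms came from the Ensembl annotation of BDGP6, and no coordinates are given because the build differs. Promoter and protein sequences were not analysed here. Figures were made with Python 3.11.15 and matplotlib 3.10.9.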

Additional observations from a re-analysis of the deposited data

How the results depend on the processing

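The call of Aats-cys in InRCA_HS against InRCA_noHS was kept in all 19 alternatives, and each of the other 6 calls of single genes ended in at least 4 of 19. Without an intensity trend 0 members were called against control_HS in either comparison, and over all genes 46 rose and 44 fell in InRCA_HS against control_HS. The corresponding counts were 111 and 34 against InRCA_noHS, and 200 and 246 for InRCA_noHS against control_HS. With only the 6 libraries compared the members called were 0, then 2 higher, then 2 lower in these comparisons. All genes then gave 30 higher and 26 lower in the first, 233 and 142 in the next and 310 and 346 in the last. Quantile normalization, TMM scaling and edgeR each called 3 members higher in InRCA_HS against InRCA_noHS (Aats-cys, Aats-trp and Aats-glupro) and 6 lower in InRCA_noHS against control_HS (with Aats-ala and Aats-ala-m added). The synthetase median was 0.31, 0.35 and 0.35 in the former and −0.37, −0.42 and −0.43 in the latter, in that order. The initiation factor median in InRCA_HS against InRCA_noHS was 0.10, 0.12 and 0.12, and in InRCA_noHS against control_HS it was −0.27 with TMM scaling or edgeR. In InRCA_HS against control_HS quantile normalization gave 0.00 (−0.00461) for initiation and −0.22 for elongation factors. The share of calls that were higher was 68.7% in InRCA_HS against InRCA_noHS, 80.1% with TMM scaling (238 and 59) and 81.6% with edgeR (235 and 53). In InRCA_noHS against control_HS it was 46.2%, 28.9% with TMM scaling (220 and 541), 35.4% with quantile normalization (271 and 494) and 27.2% with edgeR (207 and 555). The cause of these shifts was not tested.

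Leaving out 1 library gave 0 to 1 members higher and 0 to 3 lower in InRCA_HS against control_HS, 1 higher and 0 lower in each fit of InRCA_HS against InRCA_noHS, and 0 higher and 0 to 6 lower in InRCA_noHS against control_HS. All genes gave 32 to 325 higher and 21 to 636 lower, 85 to 220 and 16 to 116, and 96 to 681 and 164 to 740, with the highest counts without control_HS replicate 1. The lowest counts came without InRCA_HS replicate 1 (32), control_HS replicate 3 (21), InRCA_noHS replicate 2 (85), InRCA_noHS replicate 3 (16 and 96) and control_HS replicate 2 (164). Medians ranged over −0.15 to −0.05, 0.16 to 0.27 and −0.37 to −0.21 for synthetases, −0.21 to −0.05, −0.02 to 0.08 and −0.19 to −0.08 for initiation factors, and −0.62 to −0.33, −0.35 to −0.14 and −0.34 to −0.10 for elongation factors. Samples with the same replicate number showed little common deviation over all genes (correlations −0.245 to 0.121), and the main fit did not pair them. Such correlations cannot show whether equal numbers shared a culture or a day, which the labels do not say. With the replicate number as a block, 91 genes rose and 95 fell, 130 and 56, and 251 and 300, and among members Ef1beta (adjusted p = 0.0532) and eIF2B-delta (adjusted p = 0.0609) lost and Aats-ala (adjusted p = 0.0477) gained a call in InRCA_noHS against control_HS.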

Other observations

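The mitochondrial elongation factors and the regulators of the mRNA cap and tail gave no calls. EfTuM, which delivers aminoacyl-tRNA in the mitochondrion, had a log2 difference of −0.54 in InRCA_HS against control_HS (limma, adjusted p = 0.0785), the exchange factor CG6412 (mEFTs in current names) −0.37 and the translocase ico (mEFG1) 0.30. Lk6, a kinase of eIF4E, had −0.53 (adjusted p = 0.201), the helicase bel 0.24 and the tail-binding protein pAbp −0.15 in that comparison.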
